A study of Mus musculus with 6 samples.

Results

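Acyl-CoA thioesterases split fatty acyl-CoA into a free fatty acid and coenzyme A. The 5 genes described here, Acot1, Acot2, Acot7, Acot9 and Acot13, were taken by name from the 18193 genes that had at least 1 probe set listed for a single gene. The 5 names were selected on these same arrays, with the fasting and diet differences in signal known, so those differences are given here as a description and their p-values as no independent support. Where a gene had more than 1 probe set, the brightest on average (mean log2 signal) stands for it and the others serve as a check. All 5 passed the filter on signal and were among the 11526 genes tested. The platform annotation listed 8 probe sets for them, 6 for a single gene and 2 for a pair of genes.

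The study profiled calf muscle (gastrocnemius) from male C57BL/6J mice on 6 arrays, with 3 diets crossed with 2 lengths of fasting. The HF+SFC+ALA diet was a high-fat diet (60 kcal% fat) to which 2 supplements had been added, the iron salt sodium ferrous citrate (SFC, 0.023% of the weight) and, as its phosphate, the heme precursor 5-aminolevulinic acid (ALA, 0.2%). The HF diet was the same high-fat diet without the supplements, and the Control diet held 10 kcal% fat. Diets began at 6 weeks of age and lasted 15 weeks, although the labels give an age of 21 months, and muscle was taken after 24 h or 4 h without food. RNA was pooled within each group, so every value is 1 pool on 1 array, and the number of mice behind a pool is not stated in the labels. The series asks how the iron salt and the heme precursor bear on muscle and mitochondria in high-fat feeding.

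The free fatty acid and the coenzyme A that a thioesterase releases can each be used again. The reaction therefore runs against that of the acyl-CoA synthetases and affects how much acyl-CoA a compartment holds. Acot1, in the cytosol, and Acot2, in the mitochondrial matrix, are closely related enzymes that act on long-chain acyl-CoA, and in mouse liver and heart both genes are known to respond to fasting through the nuclear receptor PPAR alpha. Acot7, a cytosolic enzyme most abundant in brain, Acot9, a mitochondrial enzyme, and Acot13, a small enzyme also known as Them2 that is found at mitochondria, belong to a separate family with the hotdog fold.

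Acot1 and Acot2 lie next to each other on the plus strand of chromosome 12 in the RefSeq annotation of GRCm38.p6, Acot2 at chr12:83987861-83993877 and Acot1 at chr12:84009502-84017670, with 15624 bases between them, in a cluster of 6 Acot genes. Acot7 lies at chr4:152178100-152271855, Acot9 at chrX:155262443-155297654 and Acot13 at chr13:24817955-24831489. Promoter windows of 300 bases, 250 before and 50 after the annotated start, were found for 4 of the 5 genes. The windows of the 2 genes that changed with fasting are shown with that of Acot9, which did not pass, so that promoters of genes that rose stand beside one of a gene that did not (RefSeq, GRCm38.p6, plus strand, at chr12:84009252-84009551, chr12:83987611-83987910 and chrX:155262193-155262492). Capitals mark matches, on either strand, to any of the motifs searched.
Acot1: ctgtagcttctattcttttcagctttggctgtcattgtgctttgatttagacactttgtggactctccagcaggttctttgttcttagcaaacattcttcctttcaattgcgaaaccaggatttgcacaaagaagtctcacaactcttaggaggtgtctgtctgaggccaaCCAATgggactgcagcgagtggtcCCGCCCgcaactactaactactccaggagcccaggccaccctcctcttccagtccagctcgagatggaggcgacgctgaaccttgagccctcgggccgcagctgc
Acot2: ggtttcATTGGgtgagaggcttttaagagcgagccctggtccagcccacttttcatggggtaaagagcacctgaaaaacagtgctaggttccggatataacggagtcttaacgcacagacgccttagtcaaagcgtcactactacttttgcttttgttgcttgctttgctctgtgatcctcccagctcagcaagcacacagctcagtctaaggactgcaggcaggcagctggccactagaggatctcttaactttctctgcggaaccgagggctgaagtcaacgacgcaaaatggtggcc
Acot9: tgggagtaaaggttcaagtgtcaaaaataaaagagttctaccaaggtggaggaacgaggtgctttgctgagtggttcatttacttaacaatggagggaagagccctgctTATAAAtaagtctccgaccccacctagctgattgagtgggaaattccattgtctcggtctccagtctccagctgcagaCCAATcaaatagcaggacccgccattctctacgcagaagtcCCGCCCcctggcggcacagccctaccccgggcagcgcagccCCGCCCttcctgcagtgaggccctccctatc
The core AGGTCA of the PPAR element, present in 16.3% of all 32851 windows of this length, was in none of the Acot1, Acot2, Acot7 and Acot9 windows. Its tandem form, the DR1 element (0.0396% of windows), the FoxO core TGTTTAC (3.65%) and the E-box CACGTG (7.15%) were not in these 4 windows either. The CCAAT box (37.4% of windows) began 79 bases before the start of Acot1, 244 bases before that of Acot2, where it lies on the minus strand, and 63 bases before that of Acot9. A GC box GGGCGG (35.7% of windows) was found 55 bases before the start of Acot1 and, as 2 overlapping copies, 59 and 54 bases before the start behind the Acot7 window, which lies 7508 bases inside the annotated gene, at an internal start. Acot9 also held a TATA box TATAAA (13.6% of windows), 141 bases before the start, and 2 GC boxes. These matches describe the letters of the windows and were not tested for binding.

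The arrays carried skeletal muscle RNA by their markers. The summed signal of 7 fibre markers (Ckm, Acta1, Myh4, Myh1, Tnnt3, Mb and Pygm) was 297462 to 337172 at 24 h and 291008 to 318714 at 4 h, and the liver marker Alb stayed between 41.1 and 101. Arrays had median signals of 63.0 to 69.5, and the 3' to 5' ratio of the actin control, a sign of RNA quality, was 1.52 in the HF pool at 4 h and 1.08 to 1.22 in the other 5 pools. In bulk tissue, fewer cells of a type and less RNA per cell cannot be told apart. Signals are MAS5 intensities, and each difference was taken between pools for the same probe set, never between genes. Levels across probe sets entered only the choice of probe set, the floor and filter on signal, and the marker sums.

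The first comparison was 24 h against 4 h of fasting, with 3 pools each. Acot1 and Acot2 rose and the other 3 genes did not pass. The signal of Acot1 was 915, 626 and 1102 at 24 h in the HF+SFC+ALA, HF and Control pools, against 516, 242 and 246 at 4 h. Every 24 h pool was above every 4 h pool, and the HF+SFC+ALA pool stood apart from the other two at 4 h. Over the diets Acot1 averaged 881 ± 240 at 24 h and 334 ± 157 at 4 h (SD, n = 3 pools each, diet differences included). The fitted difference was 1.45 ± 0.21 on the log2 scale, or 2.74-fold (standard error of the fit over 6 pools, adjusted p = 0.0114 by limma over all 11526 genes). Acot1 had the 4th highest difference of all genes tested. Within the diets, the 24 h signal was 1.77 times that at 4 h in HF+SFC+ALA, 2.59 times in HF and 4.48 times in Control. The fold of Acot1 was thus highest on the Control diet and lowest with the supplements, a difference between diets that was not tested because each is 1 pair of pools.

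The signal of Acot2 was 7807, 5540 and 7711 at 24 h in the HF+SFC+ALA, HF and Control pools, against 4077, 2241 and 3642 at 4 h. Acot2 averaged 7019 ± 1282 at 24 h and 3320 ± 959 at 4 h (SD, n = 3 pools each). Here too the groups did not overlap, and the HF pool was the lowest at each fasting time. The fitted difference was 1.11 ± 0.08, or 2.16-fold (adjusted p = 0.00106 by limma), with 1.91-fold, 2.47-fold and 2.12-fold in HF+SFC+ALA, HF and Control. The folds lay closer together than those of Acot1, with HF first. Acot2 was the 2nd gene by p-value. A second probe set of Acot2, with a mean log2 signal of 10.38 against 12.21 for the one used, read 2181, 1454 and 2027 at 24 h and 1250, 741 and 958 at 4 h in the same order of diets. Its folds were 1.74 in HF+SFC+ALA, 1.96 in HF and 2.12 in Control, so the order of diets differed between the 2 probe sets of Acot2. It gave 0.95 ± 0.09 (adjusted p = 0.00271 in the fit over 22518 probe sets).

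A probe set listed for both Acot1 and Acot2, counted to neither, read 2168, 1643 and 2035 at 24 h in the HF+SFC+ALA, HF and Control pools and 1134, 576 and 783 at 4 h. Its 24 h pools also lay above all 4 h pools, with a difference of 1.28 ± 0.12. Acot1 and Acot2 have similar transcripts, and how far each probe set also reads the other gene was not tested. The pair-by-pair plot of the probe sets shows places where they part. In the Control fasting pair Acot1 differed by 2.16 and the 3 other probe sets by 1.08 to 1.38. For HF against Control at 4 h Acot1 differed by -0.02 and the 3 others by -0.70 to -0.37. At 24 h that difference was -0.82 for Acot1 and -0.48 to -0.31 for the 3 others.

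Some markers of other cell types were lower at 24 h. Of 6 adipocyte markers 5 had negative fasting differences, with a median of -0.74 and the largest at Retn (-1.52 ± 0.40, adjusted p = 0.0893), Lep (-0.99 ± 0.24, adjusted p = 0.0735) and Cidec (-0.80 ± 0.18, adjusted p = 0.0566), and 0 passed. Their summed signal overlapped between the fasting times, at 27043 to 37104 at 24 h and 23051 to 32933 at 4 h, but Fabp4 made up most of it. Summed without Fabp4, the other 5 markers gave 1271 at 24 h and 2718 at 4 h in HF+SFC+ALA, 5331 at 24 h and 6436 at 4 h in HF, and 836 at 24 h and 1425 at 4 h in Control. The collagen gene Col1a1, a fibroblast marker, fell by 0.62 ± 0.09 (adjusted p = 0.0129 by limma, 1 of 5 in its list), and Cd163, a macrophage marker, by 0.68 ± 0.15 (adjusted p = 0.0491, 1 of 6), where 0.92% of all genes passed as lower. Differences were negative in 3 and positive in 2 of the fibroblast markers, and negative in 4 and positive in 2 of the macrophage markers. Summed signals overlapped, at 26175 to 31946 at 24 h and 26480 to 31916 at 4 h for the fibroblast markers. For the macrophage markers they were 1803 to 2830 at 24 h and 1905 to 2785 at 4 h. The part of these cells in the fasting differences of Acot1 and Acot2 was not tested.

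**Figure D1:**
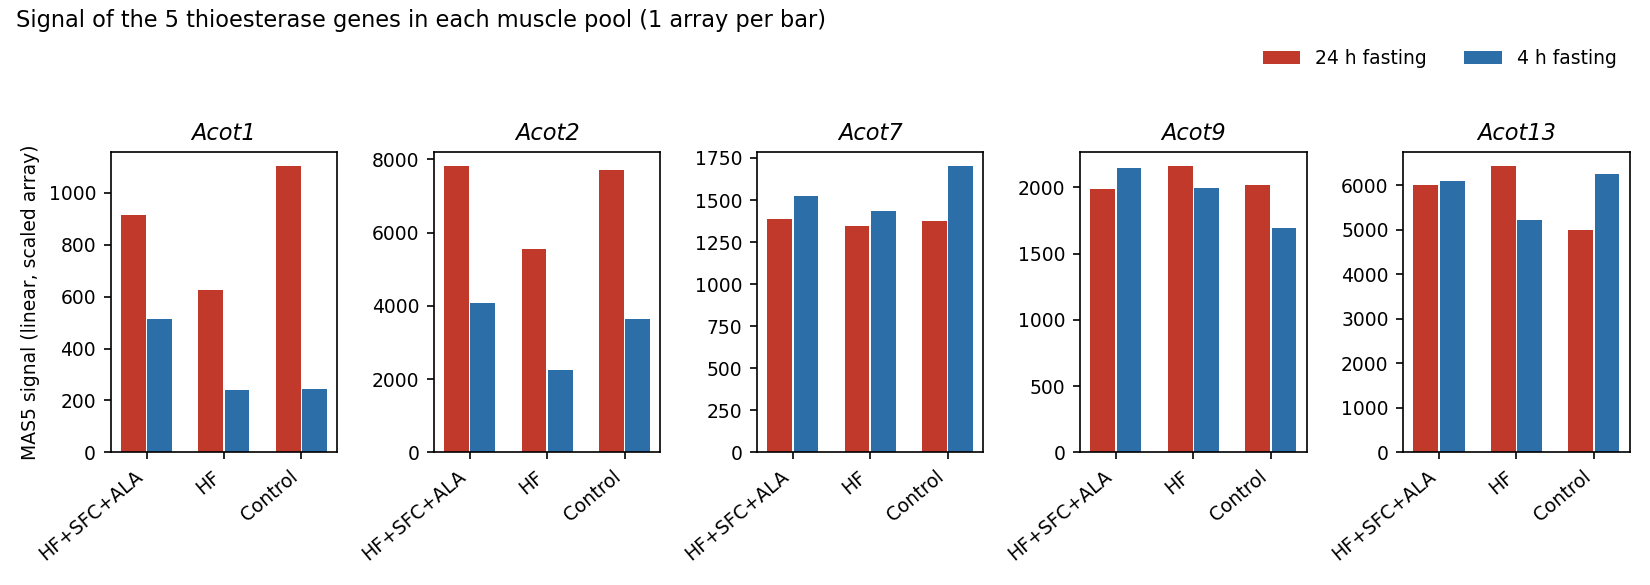
MAS5 signal (linear scale, bars from 0) of Acot1, Acot2, Acot7, Acot9 and Acot13 in the 6 muscle pools, 24 h of fasting in red and 4 h in blue, by diet; each bar is 1 array, so there are no error bars. The 24 h bars of Acot1 and Acot2 are above all their 4 h bars, and the signals of the other 3 genes span at most 1.29-fold.

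Acot7 was lower at 24 h in every diet without passing the test. Acot7 read 1385, 1347 and 1377 at 24 h in HF+SFC+ALA, HF and Control, against 1522, 1438 and 1700 at 4 h. The groups did not overlap, and the Control pool at 4 h was the highest. The difference was -0.18 ± 0.08 (adjusted p = 0.307 by limma), with a 95% interval of -0.37 to 0.01. The signal of Acot9 was 1987, 2159 and 2016 at 24 h, against 2146, 1993 and 1696 at 4 h. These groups overlapped, and the difference was 0.08 ± 0.09 (adjusted p = 0.682, interval -0.11 to 0.28). A probe set listed for Acot9 and Acot10 ranged from 1385 to 1603 and gave 0.04 ± 0.08. The signal of Acot13 was 6009, 6422 and 4982 at 24 h, against 6101, 5228 and 6248 at 4 h. The HF and Control pairs of Acot13 went opposite ways, and the fitted difference was -0.02 ± 0.10 (adjusted p = 0.956, interval -0.25 to 0.22).

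Of the 5 genes, 2 rose and 0 fell, against 2.41% of all genes tested that passed in either direction (1.49% higher). Since the genes were picked with this difference known, their share of calls is a description. Groups without overlap were found for 3 of the 5 genes, with 24 h above for Acot1 and Acot2 and below for Acot7, and for 10.6% and 8.36% of all genes in the same directions (18.9% in either). Acot1 and Acot2 were at least 1.5-fold higher in every fasting pair, as were 0.312% of all genes. The median difference of the 5 genes was 0.08, against 0.01 over all genes. The calls of Acot1 and Acot2 were lost with no filter on signal (adjusted p = 0.38 and 0.322) and without the intensity trend (adjusted p = 0.28 for both). That of Acot1 was also lost without diet in the model (adjusted p = 0.0591) and when probe sets were averaged (adjusted p = 0.0813). Averaging left the difference of Acot1 itself at 1.45, as no other probe set was listed for Acot1 alone. Over the alternatives that kept all pools, the adjusted p by limma ran from 0.00834 to 0.38 for Acot1 and from 0.000656 to 0.322 for Acot2.

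**Figure D2:**
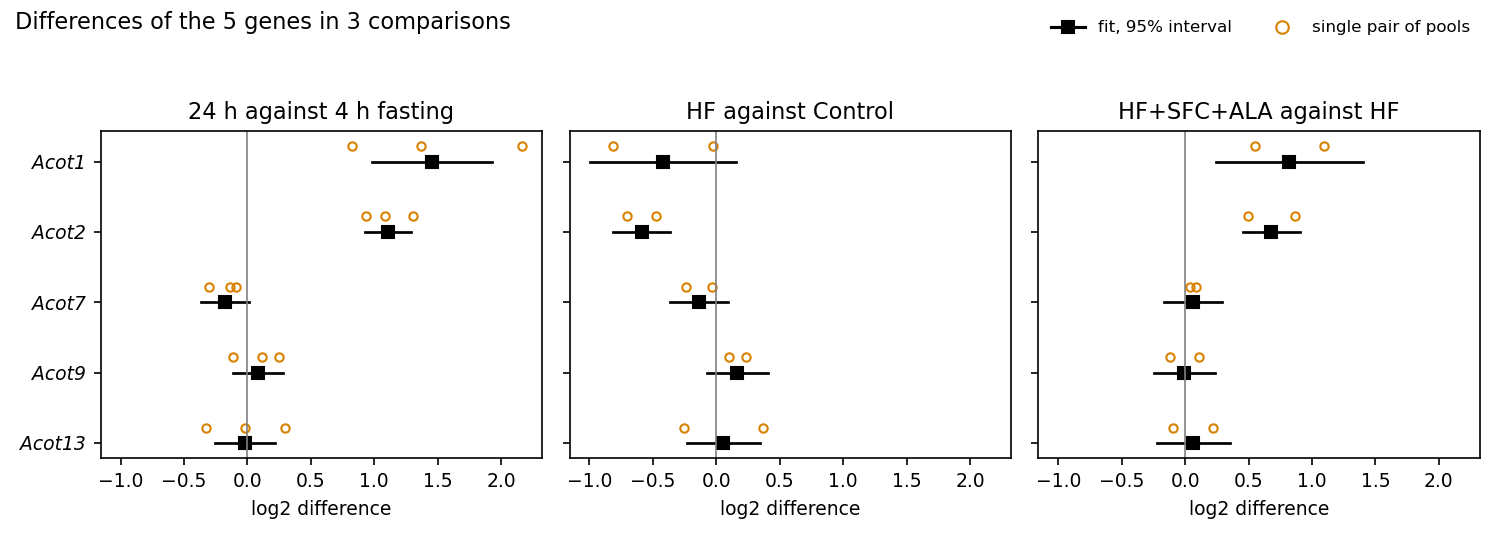
Log2 differences of the 5 genes in 3 comparisons (x axis); black squares with lines are the limma estimates with unadjusted 95% intervals, open circles the single pairs of pools (3 for fasting, 2 for each diet comparison). Acot1 and Acot2 lie at 1.45 and 1.11 for fasting, and the other 3 genes between -0.18 and 0.08.

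The second comparison set HF against Control over both fasting times. Acot2 fell and the other 4 genes did not pass. At 24 h Acot2 read 5540 in HF and 7711 in Control, and at 4 h it read 2241 in HF and 3642 in Control. HF was lower at both times, 1.39-fold at 24 h and 1.63-fold at 4 h. The fitted difference was -0.59 ± 0.10 (adjusted p = 0.0305 by limma). The other probe set of Acot2 gave -0.43 ± 0.11 and did not pass (adjusted p = 0.152). The call was also lost with no filter on signal (adjusted p = 0.379), without the trend (adjusted p = 0.342), with averaged probe sets (adjusted p = 0.142), with diet alone in the model (adjusted p = 0.738), in the fit lacking HF at 4 h (difference -0.44, adjusted p = 0.0579) and without the HF+SFC+ALA pool at 24 h (adjusted p = 0.0526). The HF pool at 4 h, with the lowest Acot2, was the one with the high actin ratio of 1.52, though its Gapdh ratio lay within the range of the other pools. The part of RNA quality in the result was not tested.

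Acot1 had a large gap between the diets at 24 h and almost none at 4 h, which 1 pool each does not allow to test. It read 626 in HF and 1102 in Control at 24 h, 1.76-fold lower in HF, and 242 in HF and 246 in Control at 4 h. The fitted difference was -0.42 ± 0.26 (adjusted p = 0.485). It was -0.95 without the Control pool at 4 h and 0.11, the opposite direction, without the Control pool at 24 h. Those fits each kept 1 Control pool and had 2278 and 641 prior degrees of freedom, against 7.27 with all pools. Acot7 stood at -0.14 ± 0.10, Acot9 at 0.17 ± 0.11 and Acot13 at 0.05 ± 0.13, with adjusted p-values of 0.564, 0.507 and 0.874. Acot13 was 1.29-fold higher in HF at 24 h and 1.20-fold lower in HF at 4 h, so its 2 pairs went opposite ways. Of all genes tested, 0.885% passed in either direction and 0.321% passed as lower in HF, and Acot2 was 1 gene of 5.

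The third comparison set HF+SFC+ALA against HF. None of the 5 genes passed, nor did any of the 11526 genes by limma (0%, with 585 at an unadjusted p under 0.05). Acot2 read 7807 in HF+SFC+ALA and 5540 in HF at 24 h, and 4077 in HF+SFC+ALA and 2241 in HF at 4 h. Both pairs were higher with the supplements, 1.41-fold at 24 h and 1.82-fold at 4 h. The fitted difference was 0.68 ± 0.10 (adjusted p = 0.0772, unadjusted 95% interval 0.46 to 0.90), and Acot2 was the 8th gene by p-value. Its other probe set gave 0.67 ± 0.11 (adjusted p = 0.183). Acot1 read 915 in HF+SFC+ALA and 626 in HF at 24 h, and 516 in HF+SFC+ALA and 242 in HF at 4 h. That is 1.46-fold and 2.13-fold higher with the supplements, with a fitted difference of 0.82 ± 0.26 (adjusted p = 0.778, interval 0.24 to 1.399). Both genes passed in the fits without the Control pool at 4 h (adjusted p = 2.12e-05 for Acot1 and 2.08e-08 for Acot2) and without the Control pool at 24 h (adjusted p = 0.000476 and 4.08e-08). In those fits the spread was drawn almost wholly from other genes (2278 and 641 prior degrees of freedom, against 7.27 with all pools). The difference of Acot1 was 0.35 without the HF+SFC+ALA pool at 4 h (adjusted p = 0.9996) and 1.29 without that at 24 h (adjusted p = 0.927), and that of Acot2 ran from 0.53 to 0.83 leaving out 1 pool. Acot7, Acot9 and Acot13 lay between -0.01 and 0.06, with intervals from -0.25 to 0.35.

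Set against Control, the HF+SFC+ALA pools gave 1.01-fold higher Acot2 at 24 h and 1.12-fold higher at 4 h. Acot1 was 1.20-fold lower with the supplements than in Control at 24 h and 2.10-fold higher at 4 h. No test of these pairs was made. The diet comparisons share the HF pools, so an unusual HF pool would move both in opposite ways. The HF pool was the lowest of the 3 diets at both fasting times for Acot1, Acot2 and Acot7, and for 12.3% of all genes tested. For Acot7 the pools of HF+SFC+ALA and HF differed by at most 1.06-fold.

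**Figure D3:**
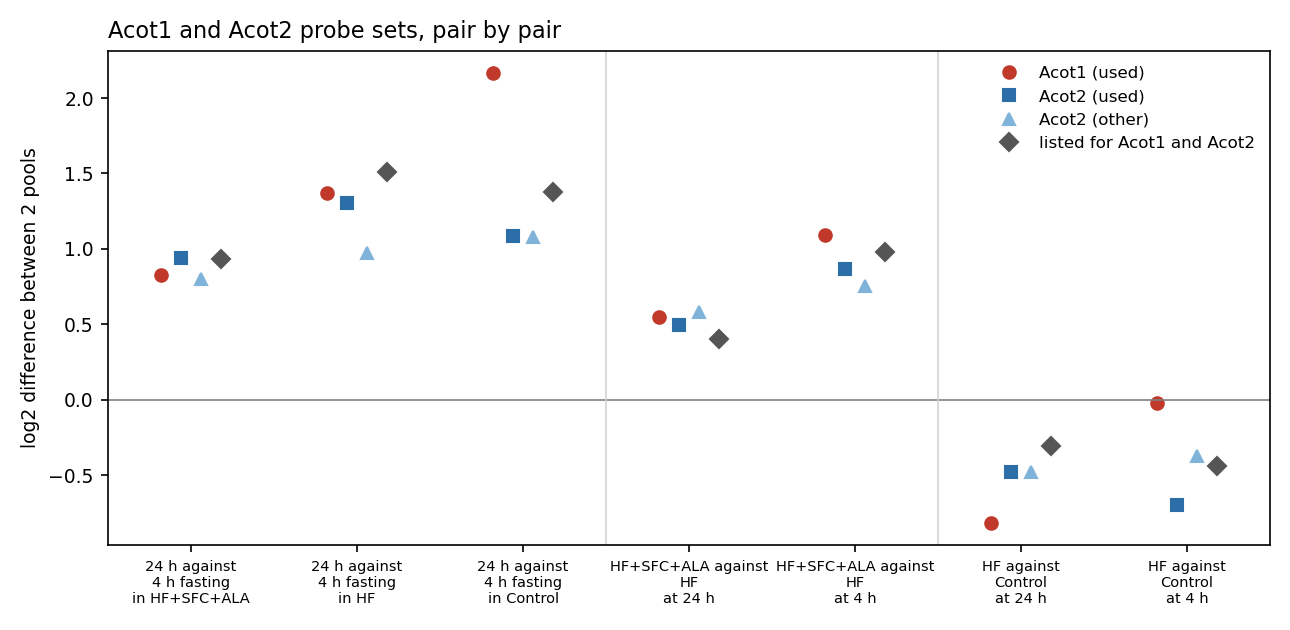
Log2 differences between single pairs of pools (y axis) for the probe sets of Acot1 and Acot2 and the one listed for both genes, with fasting pairs on the left, HF+SFC+ALA against HF in the middle and HF against Control on the right. All 4 probe sets are above 0 in every fasting and supplement pair and below 0 in every HF against Control pair, where Acot1 at 4 h is at -0.02.

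Markers of other cell types moved with the diets. For HF against Control, 3 of 6 adipocyte markers rose (Adipoq, Cidec and Lep), as did 3 of 5 fibroblast markers (Col1a1, Col3a1 and Dpt), and 0 of 6 macrophage markers passed, where 0.564% of all genes tested rose. The 6 adipocyte markers measured, of 8 listed, summed to 28827 to 29250 in HF+SFC+ALA, 32933 to 37104 in HF and 23051 to 27043 in Control. Fabp4 made up most of each sum. Without it the other 5 markers summed to 1271 at 24 h and 2718 at 4 h in HF+SFC+ALA, 5331 and 6436 in HF, and 836 and 1425 in Control. None of the 6 markers was at the signal floor in every pool, and Lep and Retn were under it in the Control pool at 24 h. The adipocyte hormone gene Adipoq read 796, 4280 and 577 at 24 h in HF+SFC+ALA, HF and Control, and 1941, 4637 and 901 at 4 h. The 5 fibroblast markers summed to 26758 to 30586 in HF+SFC+ALA, 31916 to 31946 in HF and 26175 to 26480 in Control, and the 6 macrophage markers to 2116 to 2785, 2681 to 2830 and 1803 to 1905 in the same order. For HF+SFC+ALA against HF, differences were negative in 5 of 6 adipocyte markers (median -1.28), 5 of 5 fibroblast markers (median -0.41) and 5 of 6 macrophage markers (median -0.17). None of these passed. The part of these cells in the lower Acot2 of the HF pools, or in the higher Acot1 and Acot2 with the supplements, was not tested.

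The other acyl-CoA thioesterases were mostly dim. Of 13 listed, 12 had a probe set of their own and 5 were tested: Acot6, Acot8 (a peroxisomal enzyme), Acot11, Them4 and Hibch, which acts in valine breakdown. None passed in any comparison, where 2.41%, 0.885% and 0% of all genes passed for fasting, HF against Control and HF+SFC+ALA against HF. For fasting they ranged from Them4 at -0.24 ± 0.11 (adjusted p = 0.283) to Acot6 at 0.20 ± 0.21 (adjusted p = 0.692) and Hibch at 0.19 ± 0.10 (adjusted p = 0.342). All 5 had positive differences for HF against Control, with a median of 0.29 against 0.00 over all genes, led by Acot11 at 0.38 ± 0.18 (adjusted p = 0.368). In HF+SFC+ALA against HF, Acot8 stood at -0.40 ± 0.20 (adjusted p = 0.97) and the list at a median of -0.05. Acot3, Acot4 and Acot5, which share the chromosome 12 cluster and encode peroxisomal enzymes in mouse, were below the signal filter. Acot3 read 38.2, 33.1 and 77.9 at 24 h in HF+SFC+ALA, HF and Control and 51.1, 9.56 and 21.9 at 4 h, near the floor of 26.4. Acot5 was at or under the floor in all 6 pools.

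Besides Acot1 and Acot2, single genes of some lists of the surrounding pathway rose with fasting, where 1.49% of all genes rose and 0.92% fell. Of 9 acyl-CoA synthetases tested, 1 rose with fasting and 8 did not pass. This was Acss1, which makes acetyl-CoA in mitochondria, at 0.92 ± 0.09 (adjusted p = 0.0025). It read 1461, 1144 and 1713 at 24 h in HF+SFC+ALA, HF and Control and 854, 591 and 845 at 4 h, with HF lowest at each time, as for Acot2. Of 13 genes of coenzyme A synthesis and breakdown, 1 rose, Nudt7, a peroxisomal hydrolase of coenzyme A (0.49 ± 0.10, adjusted p = 0.0408). It read 3964, 3990 and 2973 at 24 h and 3359, 2333 and 2157 at 4 h, so its lowest diet was Control. Of 11 genes of peroxisomal beta-oxidation, 1 rose, the bifunctional enzyme gene Ehhadh (0.63 ± 0.13, adjusted p = 0.0485). Ehhadh read 661, 421 and 627 at 24 h and 351, 291 and 465 at 4 h.

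None of 16 genes of mitochondrial beta-oxidation, 6 of the carnitine shuttle and 8 acyl-CoA binding proteins passed for fasting. Differences were positive in 15 of the 16 beta-oxidation genes, with a median of 0.18 and the highest at Eci2, an enoyl-CoA isomerase (0.29 ± 0.07, adjusted p = 0.0653). They were positive in all 6 carnitine genes, the highest at Cpt2, the inner membrane transferase (0.33 ± 0.08, adjusted p = 0.068), where 51.7% of all genes were positive. The acyl-CoA binding proteins had a median of 0.08, led by Acbd4 at 0.27 ± 0.10 (adjusted p = 0.216).

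Of 14 PPAR target genes tested, without the Acot genes, 4 rose with fasting and 10 did not pass, against 1.49% of all genes that rose. They were Angptl4, an inhibitor of lipoprotein lipase, Ehhadh, the malonyl-CoA decarboxylase gene Mlycd and the fatty acid transporter Cd36, at 0.66 ± 0.13, 0.63 ± 0.13, 0.49 ± 0.08 and 0.39 ± 0.08. Ehhadh is also in the list of peroxisomal beta-oxidation above. The median of the PPAR target list was 0.20, against 0.08 for the 5 thioesterase genes and 0.01 over all genes. Of 8 PPAR receptors and partners 2 fell and 0 rose, where 0.92% of all genes fell: Ppargc1a, a coactivator (-0.9995 ± 0.17, adjusted p = 0.0212), and Rxrg, a partner receptor (-0.59 ± 0.08, adjusted p = 0.00978). Rxrg read 1266, 1317 and 1212 at 24 h in HF+SFC+ALA, HF and Control and 1791, 1951 and 1991 at 4 h. All 9 protein palmitoyl thioesterases, which remove fatty acids from proteins, failed to pass, with a median of -0.09.

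For HF against Control and HF+SFC+ALA against HF, 0 genes of these lists passed, where 0.885% and 0% of all genes tested passed. For HF against Control, the nearest to the threshold was Ppt2, a lysosomal palmitoyl thioesterase, at -0.71 ± 0.13 (adjusted p = 0.05001), followed by Decr1, a reductase of unsaturated acyl-CoA, at 0.54 ± 0.10 (adjusted p = 0.0537), and Dbi, the acyl-CoA binding protein, at 0.40 ± 0.08 (adjusted p = 0.0586). Acss1 stood at -0.55 ± 0.11 (adjusted p = 0.0668) and Ehhadh at -0.63 ± 0.16 (adjusted p = 0.132), both in the direction of Acot2. Mitochondrial beta-oxidation had 14 of 16 positive differences and a median of 0.25, the opposite direction, where 50% of all genes were positive. For HF+SFC+ALA against HF, Acss1 stood at 0.44 ± 0.11 (adjusted p = 0.523), Ehhadh at 0.46 ± 0.16 (adjusted p = 0.863) and the uncoupling protein gene Ucp3 at 0.42 ± 0.10 (adjusted p = 0.449). The largest differences of the synthetases and the coenzyme A genes were negative, Acsf3 at -0.70 ± 0.22 and Coasy at -0.35 ± 0.18 (adjusted p = 0.812 and 0.970 by limma). Positive differences were found in 5 of 9 synthetases and 8 of 13 coenzyme A genes. PPAR targets had 13 of 14 positive differences there with a median of 0.12, and the carnitine shuttle 6 of 6 with a median of 0.06. Of all genes, 48.7% were positive in that comparison.

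**Figure D4:**
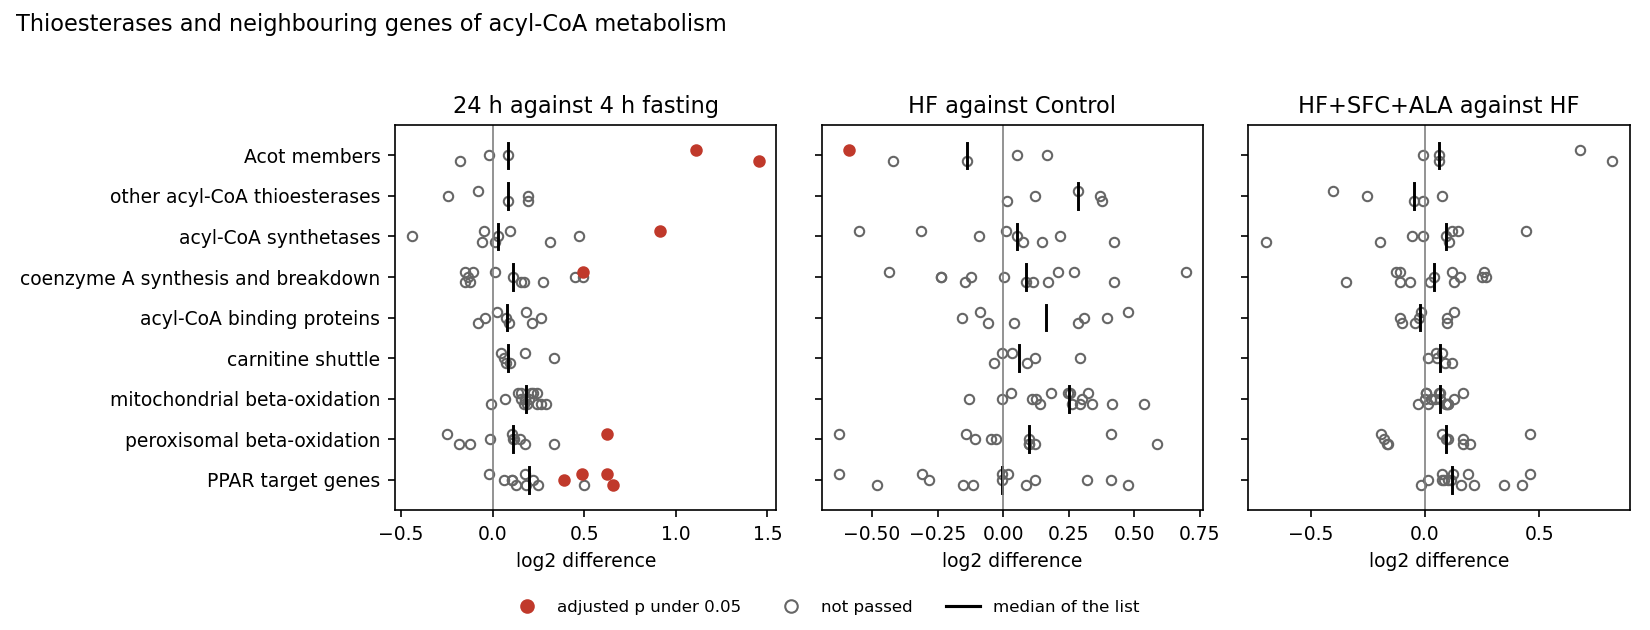
Log2 differences (x axis) of the tested members of 9 gene lists (rows) in 3 comparisons; filled red points passed an adjusted p of 0.05, open points did not, and black bars are list medians. Acot1 and Acot2 are the 2 points farthest right for fasting, ahead of Acss1 at 0.92, and Acot2 is the only filled point for HF against Control.

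The pattern of each gene over the 6 pools was set beside that of the other genes whose log2 signal spanned at least 0.58, with Pearson's r as a description; all points share the arrays, diets and fasting times. Acot1 and Acot2 correlated at r = 0.93 with each other. The 5 genes most like Acot2, of 4697 compared, were Etfbkmt (r = 0.996), a methyltransferase of the electron transfer flavoprotein, Rnf113a2, Raph1, Eola1 and Acss1 (r = 0.985). Those most like Acot1 were Nrbp1 (r = 0.988), Llgl2, Prr14, Trp53rka and Efna1 (r = 0.977). Etfbkmt read 1323, 1085 and 1365 at 24 h in HF+SFC+ALA, HF and Control and 914, 678 and 902 at 4 h, in the order of diets seen for Acot2 at 4 h. For the other 3 genes, the likest were Adcy4, Smad3, Cyp2f2, Zfp180 and Cdc14a for Acot7 (r from 0.953 to 0.988), Syne3, Atp23, Mysm1, Btc and Lca5l for Acot9 (r from 0.973 to 0.987), and Ptprr, Megf11, Slc34a2, Mtfmt and Catsper1 for Acot13 (r from 0.968 to 0.978). With 6 points and 4697 genes, high values of r arise readily.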

How the data were processed

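The authors deposited linear intensity values for every probe set. These come from MAS5, as the submitters' processing notes say without giving a version or settings. The trimmed mean was 500.004 on every array, so each had been scaled to a common level. RNA was pooled within groups, per the series' design text, and each array is 1 pool. No group has a replicate pool, so the error behind the p-values is the departure of the pools from an additive fit of diet and fasting time. That error is moderated with the spread of other genes and does not measure variation within a group.

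The platform annotation gave a single symbol to 34945 of 45037 non-control probe sets, several to 932 and none to 9160. Of the single symbols, 34741 were taken from RefSeq through the gene identifier, whether or not this changed them. A floor of 26.4, the 30th percentile, was applied ahead of the log2 step. Genes with a mean log2 signal above the median of probe sets (5.88) were kept, 11526 in all. Diet and fasting time were fitted additively with limma 3.58.1 in R 4.3.3 (lmFit, eBayes with trend; 2 residual and 7.27 prior degrees of freedom), with Benjamini-Hochberg adjustment at 0.05, and the fit was tested on simulated data. Tables and figures were made with pandas 2.3.3, matplotlib 3.10.9 and numpy 2.4.6 under Python 3.11.15. Detection calls were not used; with 6 arrays, their number sets the precision.

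The members and gene lists were chosen with earlier results of these data known. Named genes are the members, up to 4 called genes per list and comparison or else up to 3 with the largest differences, and the 5 genes most like each member. Alternatives were quantile normalization, filters, floors, averaged probe sets, no trend, 1 factor alone, each pool left out, and the other Acot2 probe set.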

Additional observations from a re-analysis of the deposited data

Results flagged for a closer look

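Single pairs of pools went opposite ways, each by more than the standard error of the fit, in 3 cases; with 1 pool per group the differences were not tested. For 24 h against 4 h of fasting, Acot13 differed by 0.30 on HF and by -0.33 on Control. For HF against Control, Acot13 differed by 0.37 at 24 h and by -0.26 at 4 h, which rests on the same 4 pools. Acot9 differed by -0.11 on HF+SFC+ALA and by 0.25 on Control for 24 h against 4 h of fasting. No group had enough pools to look for a pool far from the others.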

How the results depend on the processing

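No paired analysis was possible because each combination of diet and fasting time has 1 pool and the labels give no replicate numbers; diet is already a term of the fasting comparison. The number of genes passing for fasting was 278, and 0 unfiltered (2026 by unadjusted p under 0.05), 18 with averaged probe sets, 0 without the trend (1639 unadjusted), 60 without diet, and 59 to 455 leaving out 1 pool: 452 and 455 lacking Control at 24 h and 4 h, and 59 lacking an HF+SFC+ALA pool of either time. For HF against Control it was 102, and 0 with no filter (1993 unadjusted), 1 with averaged probe sets, 0 without the trend (1348 unadjusted), 0 with diet alone (982 unadjusted), and 47 to 592 leaving out 1 pool (592 and 279 without the Control pools at 4 h and 24 h, 275 and 47 without the HF pools, 58 and 59 without the HF+SFC+ALA pools, in the same order of times). For HF+SFC+ALA against HF it was 0, and 6 under a stricter filter (65th percentile) and 0 to 109 leaving out 1 pool (107 and 109 without the Control pools at 4 h and 24 h, 4 without the HF pool and 2 without the HF+SFC+ALA pool at 4 h).

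For fasting, Acot1 (1.45 with no filter, averaged probe sets, no trend and no diet term) and Acot2 (1.11 with no filter and no trend) did not pass, and by construction these settings alter the error and not the difference. Leaving out 1 pool gave 1.10 to 1.77 for Acot1 and 1.01 to 1.19 for Acot2, all passing. Acot2 for HF against Control was -0.59 with no filter, no trend and diet alone, -0.51 with averaged probe sets and -0.43 with its other probe set, none passing, and -0.74 to -0.44 leaving out 1 pool, 4 of 6 passing. Signs turned, in each case without passing, for differences that had not passed with all pools: Acot13 for fasting, -0.17 to 0.14 leaving out 1 pool (0.14 without either Control pool), and for HF against Control, -0.18 to 0.29 (-0.18 without Control or HF at 24 h), Acot1 for HF against Control, -0.95 to 0.11 (0.11 without Control at 24 h, while -0.95 without Control at 4 h passed), and for HF+SFC+ALA against HF Acot7 (-0.0026 to 0.12), Acot9 (-0.15 to 0.14) and Acot13 (-0.17 to 0.30). Acot1 for HF+SFC+ALA against HF was 0.35 to 1.29 leaving out 1 pool, always positive. Of 213 recomputed differences of the 5 genes, 186 kept their direction and their side of the threshold, and of 42 recomputed counts of genes, 19 stayed within 1.5 times the count given. Most of the 213 belong to differences that had not passed and so had no call to lose. Over the alternatives that kept all pools, the fasting call was kept in 4 of 8 for Acot1 and 7 of 9 for Acot2. The HF against Control call of Acot2 was kept in 4 of 9. No filter and no trend left 0.767 and 2.36 prior degrees of freedom against 7.27. The fits without the Control pool at 4 h or 24 h had 2278 and 641, so their spread came almost wholly from other genes. The cause of the other changes was not tested.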
